A study of Mus musculus with 207 samples.

Results

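Immunoglobulin kappa variable (Igkv) segments were described in mouse jejunum, the middle stretch of the small intestine. The group holds every gene of the jejunum count table whose symbol starts with Igkv, which gave 160 of 55536 genes. Of these, 100 are annotated as functional variable genes and 60 as pseudogenes. The rule for members uses the name alone and no measured value, but the group was chosen with earlier results of these data known. Total RNA from 70 jejunum samples of C57BL/6 mice was sequenced, 1 library for each animal identifier. Every diet label joins a protein part, WPI-30 or CAS-30, to a fat part, FAT-20, FAT-40 or FAT-55, and no unit is given for these numbers. WPI and CAS were read here as whey protein isolate and casein, which the labels do not spell out. There were 12 libraries for WPI FAT-20, 12 for WPI FAT-40 and 12 for WPI FAT-55, against 11 for CAS FAT-20, 12 for CAS FAT-40 and 11 for CAS FAT-55. The labels give no sex, age, feeding time, batch or date. The animal identifiers fall into 24 stems of 2 or 3 animals, each within 1 diet, and the labels do not say what such a stem means.

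Antibody light chains of the kappa type are built when a developing B cell joins 1 variable segment of the Igk locus to 1 joining segment and transcribes the result with the constant gene Igkc. A B cell clone keeps its rearranged light chain and heavy chain through its divisions, so reads of the variable segments carry a record of which clones contribute RNA. In the small intestine most antibody RNA comes from plasma cells of the lamina propria, which secrete IgA, whose heavy chain is encoded by Igha, bound to the joining chain Jchain. In mice the kappa light chains are far commoner than the lambda ones, which are encoded by Iglv and Iglc genes.

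The ends of the variable segments, where joining takes place, are shown for the 12 segments on which the results turn, because some of them differ so little that reads can be hard to assign. Each line gives the last 60 bases of the annotated coding part, 5′ to 3′ on the coding strand, with the bases after the last in-frame cysteine codon in capitals. These capitals begin the third complementarity-determining region, a part of the antigen-binding site. Sequences and positions are from GENCODE M21 on GRCm38.
Igkv1-110, chr6:68271208-68271267, + strand: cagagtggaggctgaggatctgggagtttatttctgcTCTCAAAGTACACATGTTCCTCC
Igkv1-117, chr6:68121768-68121827, + strand: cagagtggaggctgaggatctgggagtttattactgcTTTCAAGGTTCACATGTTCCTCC
Igkv1-133, chr6:67725602-67725661, + strand: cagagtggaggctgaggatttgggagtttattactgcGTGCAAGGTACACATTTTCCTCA
Igkv2-109, chr6:68303099-68303158, + strand: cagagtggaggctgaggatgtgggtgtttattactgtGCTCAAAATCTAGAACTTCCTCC
Igkv2-112, chr6:68220647-68220706, + strand: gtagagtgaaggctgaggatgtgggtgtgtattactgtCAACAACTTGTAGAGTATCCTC
Igkv4-59, chr6:69438218-69438277, - strand: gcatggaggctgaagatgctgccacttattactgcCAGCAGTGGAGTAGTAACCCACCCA
Igkv4-69, chr6:69283794-69283853, - strand: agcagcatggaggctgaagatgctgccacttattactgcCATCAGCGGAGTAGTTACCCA
Igkv4-70, chr6:69267888-69267947, - strand: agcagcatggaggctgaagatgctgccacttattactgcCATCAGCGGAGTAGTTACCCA
Igkv4-72, chr6:69226854-69226913, - strand: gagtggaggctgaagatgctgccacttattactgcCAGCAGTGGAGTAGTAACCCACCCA
Igkv5-43, chr6:69823355-69823414, - strand: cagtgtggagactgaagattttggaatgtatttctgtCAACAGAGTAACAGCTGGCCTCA
Igkv5-45, chr6:69775750-69775809, - strand: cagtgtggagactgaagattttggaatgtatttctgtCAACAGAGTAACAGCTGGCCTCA
Igkv8-27, chr6:70171809-70171868, - strand: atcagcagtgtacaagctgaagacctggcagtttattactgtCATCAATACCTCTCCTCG

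Igkv4-69 and Igkv4-70 are identical over the 60 bases shown, and so are Igkv5-43 and Igkv5-45. Over the whole coding part Igkv5-43 and Igkv5-45 are 98.6% identical, and Igkv1-110 and Igkv1-117 are 97.2% identical. Of the 100 functional segments, 10 have a copy at 97% identity or more and 35 at 95% or more. Igkv4-59, which is 96.3% identical to Igkv4-70, shares 74.3% of its 50-base windows with other functional segments. Igkv4-70 shares 63.9%, Igkv5-43 shares 51.2%, Igkv1-110 shares 50.9% and Igkv2-112 shares none. Reads that matched several places were left out of the counts, and a plasma cell's segment also carries somatic mutations. Levels of segments with near copies are therefore uncertain.

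All 160 members lie on chromosome 6 of GRCm38 between bases 67555497 and 70704177, a span of 3.15 Mb that ends just before the first joining segment, Igkj1, at 70722562. Of them 75 are on the + strand and 85 on the - strand. At least 1 read was found for 135 members, among them all 100 functional segments, and 58 members had a read in every library. A test of low counts (at least 10 reads in enough libraries) kept 84 members, 83 functional segments and the pseudogene Igkv2-116. The remaining 76 were not tested. Pseudogenes summed to 7.66 CPM, a read count scaled to the reads on genes of its library, on average, against 1233 CPM for functional segments.

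Jejunum libraries held 17502377 to 23808051 reads on genes, with a median of 22889632. At this depth a count of 0 allows up to 3 reads, or 0.126 to 0.171 CPM, counting error only. Enterocyte genes (6 of 6 measured) summed to between 15154 and 29565 CPM in every library, so intestinal epithelium was present throughout. Plasma cell genes (12 of 12) summed to 871 to 2391 CPM in WPI libraries and 476 to 4088 CPM in CAS libraries. Sums of 13 mature B cell genes were uneven, with a lowest, median and highest value of 20, 27.4 and 114 CPM in WPI libraries and 15.8, 40.3 and 589 CPM in CAS libraries. Smooth muscle genes (10 of 10) were also uneven: their sums averaged 682 ± 296 CPM in WPI FAT-55 and 1652 ± 823 CPM in WPI FAT-20 (SD, n = 12 each), and 797 ± 371 CPM in CAS FAT-55 and 1349 ± 337 CPM in CAS FAT-20 (SD, n = 11 each). In CAS FAT-55 replicate 5 the antibody genes as a whole were low: the Igkv total was 141 CPM and Igkc 339 CPM, the lowest of all 70 libraries. In bulk RNA, fewer cells of a type and less RNA per cell cannot be told apart.

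The use of segments was uneven. Averaged over libraries, 10 segments held 48.5% of the Igkv reads and 20 held 67.9%, while 73 members averaged at least 1 CPM. The 10 leading segments by CPM were also the 10 leading ones per kilobase of exon. On that length scale Igkv1-110 averaged 253 CPM per kilobase, Igkv8-27 200, Igkv1-117 196, Igkv4-72 185, Igkv10-96 159, Igkv2-109 137, Igkv8-30 126, Igkv5-43 111, and Igkv4-59 and Igkv5-48 108 each. This order was not tested, and values varied widely between libraries: Igkv1-110 had 101 ± 101 CPM and Igkv8-27 72.1 ± 103 CPM (SD, the same 70 libraries). Igkv4-72 varied most of these 10, between 1.17 and 1137 CPM with a median of 22.4 CPM. Igkv5-48 varied least, between 4.48 and 182 CPM with a median of 33.3 CPM.

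By family, the Igkv4 segments (33 members) took 18.8% of the Igkv reads on average, Igkv1 (13 members) 17.5%, Igkv8 (12 members) 13.1%, Igkv5 (6 members) 9.09%, Igkv6 (9 members) 6.95% and Igkv2 (10 members) 6.57%. Segments on the - strand took 61.8 ± 11.9% and those on the + strand 38.2 ± 11.9% (SD, n = 70). The 25 functional segments farthest from Igkj1 took 33.2% and the 25 nearest took 19.2%. Igkv5 took 15.5 ± 5.47% in WPI FAT-55 and 5.85 ± 3.76% in CAS FAT-55 (SD, n = 12 and 11). Igkv6 took 9.97 ± 4.48% in WPI FAT-40 and 4.34 ± 1.67% in CAS FAT-40 (SD, n = 12 each). These shares are a description and were not tested.

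The summed Igkv level was lower on WPI than on CAS at each fat level, and lower at FAT-55 than at FAT-20 with either protein. At FAT-20 the lowest, median and highest totals were 585, 1121 and 1808 CPM in WPI libraries, against 739, 2170 and 3064 CPM in CAS libraries. At FAT-40 they were 508, 1012 and 1217 CPM in WPI libraries, against 1161, 1647 and 1946 CPM in CAS libraries. At FAT-55 they were 496, 722 and 987 CPM in WPI libraries, against 141, 1027 and 2435 CPM in CAS libraries. Every WPI library lay below the median CAS library of its fat level, 12 of 12 each time, and the ranges overlapped at all 3 levels. The mean on WPI was 0.52 times that on CAS at FAT-20, 0.59 times at FAT-40 and 0.63 times at FAT-55. Without the largest segment of each library the totals averaged 921 CPM on WPI and 1752 CPM on CAS at FAT-20, 799 and 1242 CPM at FAT-40, and 623 and 737 CPM at FAT-55, where the medians were 626 CPM on WPI and 658 CPM on CAS. The FAT-55 mean was 0.67 times the FAT-20 mean on WPI and 0.55 times on CAS. Without CAS FAT-55 replicate 5 the CAS FAT-55 mean was 1236 CPM in place of 1137 CPM. A total over the members was chosen with earlier results in view, so it carries no p.

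Igkc and the genes of secreted IgA fell on WPI as well. Over the 3 fat levels Igkc was lower on WPI, with 2512 ± 929 CPM in WPI libraries (n = 36) and 3530 ± 1473 CPM in CAS libraries (SD, n = 34), a log2 fold change of -0.42 ± 0.11 (SE, edgeR quasi-likelihood test, adjusted p = 0.0053). Igha averaged 3716 ± 1467 CPM in WPI libraries and 5619 ± 2557 CPM in CAS libraries, a log2 fold change of -0.53 ± 0.11 (adjusted p = 5.5e-04, edgeR). Jchain averaged 859 ± 368 CPM in WPI libraries and 1335 ± 659 CPM in CAS libraries, a log2 fold change of -0.56 ± 0.13 (adjusted p = 9.4e-04, edgeR). Of 18 constant, joining and lambda genes, 16 fell on WPI and none rose, where 8.83% of all genes were lower. Of 12 plasma cell genes 8 fell, of 7 T cell genes 7 fell, and of 13 mature B cell genes 13 fell, with a median log2 fold change of -2.50. With a random effect for the stem of the animal identifier, 10 of the 18, 5 of the 12, 6 of the 7 and 4 of the 13 were called. Ighm, the heavy chain gene of IgM, averaged 19.6 ± 10.3 CPM in WPI libraries and 59.0 ± 67.3 CPM in CAS libraries (SD, n = 36 and 34), a log2 fold change of -1.55 ± 0.26 (SE, adjusted p = 9.1e-06, edgeR). Within CAS, Ighm averaged 71.9 CPM in CAS FAT-55 and 55 CPM in CAS FAT-20 (adjusted p = 0.45, edgeR), while the Igkv total was lower at FAT-55. The Igkv reads found for each Igkc read averaged 0.359, 0.382 and 0.384 on WPI from the lowest to the highest fat label, and 0.428, 0.475 and 0.463 on CAS. The Igkc mean on WPI was 0.66, 0.73 and 0.80 times that on CAS from the lowest to the highest fat label.

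**Figure D1:**
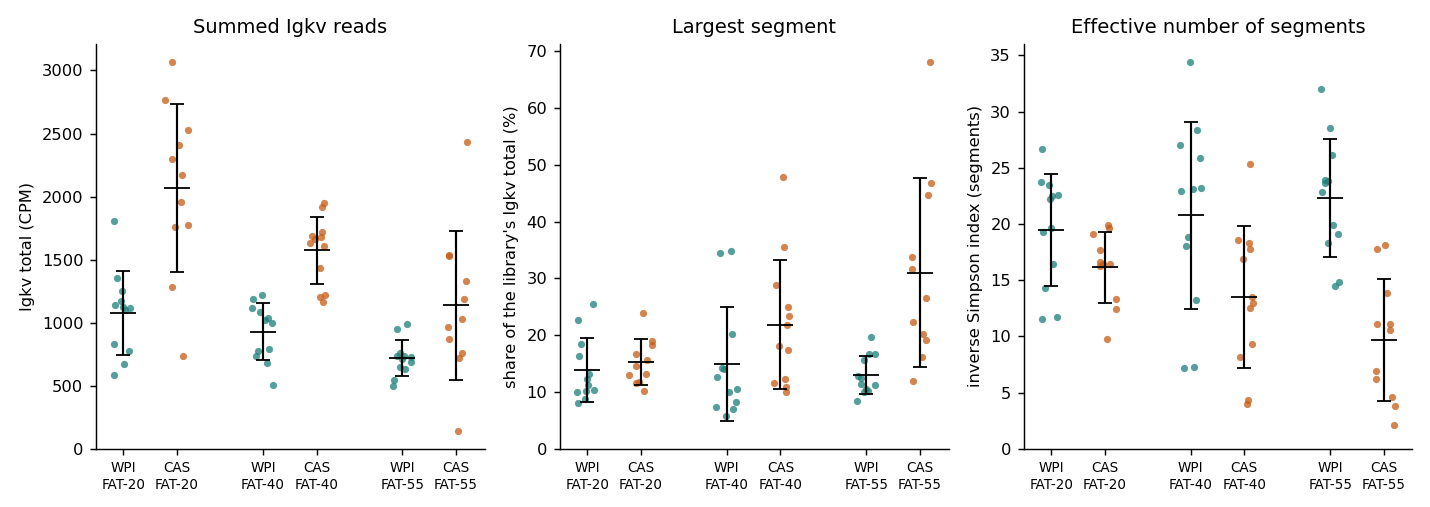
Summed Igkv reads in CPM (left), the largest segment's share of the Igkv total in percent (middle) and the effective number of segments (right), for 6 diets. Each point is 1 jejunum library, and bars are mean ± SD: CAS FAT-55 reaches 68.1% and averages 9.66 segments, WPI FAT-55 stays under 20% and averages 22.3.

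How evenly a library used its segments was measured by the share of its largest segment and by the effective number of segments. That number is the inverse Simpson index, which equals the count of segments if all were used equally. The effective number averaged 19.5 ± 4.98 in WPI FAT-20 and 16.1 ± 3.15 in CAS FAT-20, 20.8 ± 8.33 in WPI FAT-40 and 13.5 ± 6.33 in CAS FAT-40, and 22.3 ± 5.26 in WPI FAT-55 and 9.66 ± 5.44 in CAS FAT-55 (SD). At FAT-55, 10 of 12 WPI libraries lay above every CAS library, and all 12 lay above the CAS median. At FAT-20, 8 of 12 WPI libraries lay above the CAS median and 4 below, so the groups overlapped widely. On CAS the effective number in FAT-55 was lower than the FAT-20 median in 9 of 11 libraries, and on WPI 5 of 12 FAT-55 libraries lay below the FAT-20 median and 7 above. Leaving out 1 library at a time moved the CAS FAT-55 mean only between 8.82 and 10.4.

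Libraries in which 1 segment took at least 20% of the Igkv reads numbered 20 of 70, with 11 different segments. They were 2 of 12, 3 of 12 and 0 of 12 on WPI from the lowest to the highest fat label, and 1 of 11, 6 of 12 and 8 of 11 on CAS. All 4 libraries in which a segment took 40% or more were on CAS. Different mice had different leaders: 21 segments were the largest in at least 1 library, and Igkv1-110 was the largest most often, in 17 libraries. In WPI FAT-55 the largest was Igkv5-43 in 6 of 12 libraries, which came from 4 stems, at shares of 10.2% to 16.7%. In CAS FAT-55, 8 different segments were the largest among 11 libraries.

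The highest share of all was that of Igkv4-72 in CAS FAT-55 replicate 6, 68.1% of 30005 Igkv reads (Wilson 95% interval 67.5 to 68.6%, counting error only). Igkv2-109 took 47.8% in CAS FAT-40 replicate 1, Igkv4-72 took 46.7% in CAS FAT-55 replicate 10 and Igkv1-117 took 44.7% in CAS FAT-55 replicate 8. Igkv4-59 took 35.5% in CAS FAT-40 replicate 7, where Igkv1-117 took a further 31.5%. Igkv8-24 took 33.7% in CAS FAT-55 replicate 9, and Igkv8-27 took 31.7% in CAS FAT-55 replicate 2. On WPI the highest shares were those of Igkv4-72, 34.8% in WPI FAT-40 replicate 10 and 34.4% in WPI FAT-40 replicate 12, 2 mice of the same stem. Their stem mate had 2.56% of Igkv4-72. No interval of a library's largest share reached further than 1.26 percentage points to either side, so counting error is small beside these differences. The remaining segments that led a library at 20% or more were Igkv1-110, Igkv1-122, Igkv1-135, Igkv5-43 and Igkv8-30.

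**Figure D2:**
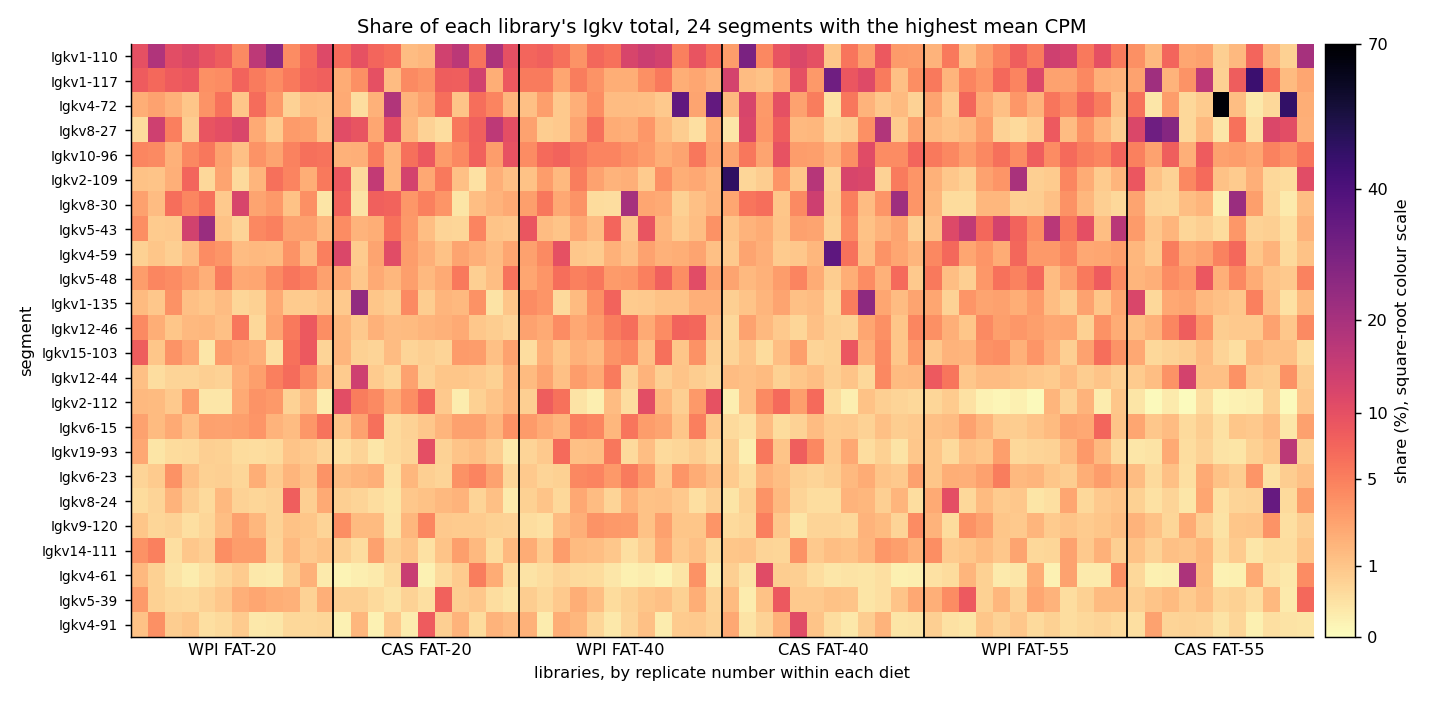
Share of each library's Igkv total (colour, square-root scale) for the 24 segments with the highest mean CPM (rows) in 70 jejunum libraries (columns, by diet and replicate number). Single dark cells stand out in CAS FAT-40 and CAS FAT-55, while the Igkv5-43 row is filled in most WPI FAT-55 libraries.

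A dominant light chain segment stood beside a dominant heavy chain segment in the same library. In CAS FAT-55 replicate 6 the heavy chain segment Ighv1-53 took 68.1% of the Ighv reads, beside the 68.1% of Igkv4-72. In CAS FAT-55 replicate 10 it was Ighv1-72 with 46.8%, and in WPI FAT-40 replicates 10 and 12 it was Ighv1-7 with 37.7% and 39.1%. Igkv4-72 thus led with 3 different heavy chain segments in these 4 libraries, and with the same one in the 2 mice of 1 stem. In CAS FAT-40 replicate 1 the heavy chain leader was Ighv6-6 with 53.5%, in CAS FAT-55 replicate 8 Ighv7-3 with 48.7%, and in CAS FAT-55 replicate 9 Ighv7-3 with 44.1%. Bulk counts do not show which light and heavy chain segments came from the same cell. Over 70 libraries the 2 largest shares had a Pearson r of 0.896 and a Spearman rho of 0.732. Without the 2 libraries farthest from the median, CAS FAT-55 replicate 6 and CAS FAT-40 replicate 1, r was 0.837. Within diets r was 0.714, 0.931 and 0.754 for WPI in order of fat label, and 0.0965, 0.858 and 0.932 for CAS. Both shares come from the same library, so these values are a description.

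**Figure D3:**
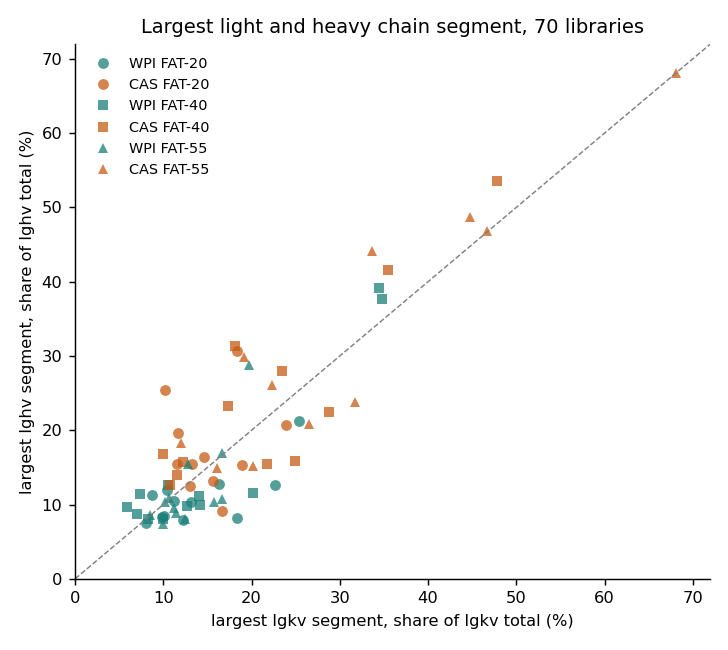
Share of the largest Igkv segment (x axis, % of Igkv reads) against that of the largest Ighv segment (y axis, % of Ighv reads) in each of 70 jejunum libraries, with the dashed line of equal shares. Libraries with a largest Igkv share above 30% all had an Ighv leader above 20%, up to 68.1% on both axes.

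Between mice, the make-up of Igkv reads differed widely. With the Bray-Curtis distance of shares, 0 for the same make-up and 1 for no segment in common, mice of the same stem differed by 0.494 on average (68 pairs) and mice of the same diet in other stems by 0.506 (306 pairs). Mice with the same protein label and another fat level differed by 0.518, and mice with the same fat level and the other protein by 0.538. The nearest library belonged to a stem mate for 4 of 70 mice, to the same diet for 19 and to the same protein label for 53. Stems held 2 or 3 libraries, diets 11 or 12 and protein labels 36 or 34, so these counts cannot be set against each other. Within diets, mice of different stems differed by 0.419 in WPI FAT-55 and by 0.628 in CAS FAT-55. The most alike pair were the WPI FAT-40 replicates 10 and 12 named above, at 0.267.

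The first comparison asks how segments differ between the proteins over all fat levels. On WPI 24 of 84 tested segments changed, 6 higher and 18 lower. Over all 16992 genes tested 15.3% changed, 6.50% higher and 8.83% lower, at an adjusted p under 0.05 in edgeR. Of the 24 calls, 9 held with counts summed by identifier stem and 1, Igkv10-96, with a random effect for stem. The median log2 fold change was -0.22 for the 84 segments and -0.01 for all genes. Those that fell came from several families and both strands of the locus, and 7 of the 10 leading segments were among them: Igkv1-117, Igkv4-72, Igkv8-27, Igkv10-96, Igkv2-109, Igkv8-30 and Igkv4-59. The call of Igkv8-30 was lost without CAS FAT-55 replicate 7 (log2 fold change -0.59, adjusted p = 0.27, edgeR) and that of Igkv4-59 without CAS FAT-40 replicate 7 (-0.64, adjusted p = 0.085). Igkv1-110, the most abundant, averaged 82.3 ± 57.5 CPM in WPI libraries and 121 ± 131 CPM in CAS libraries (SD, n = 36 and 34), with an adjusted p of 0.46 (edgeR).

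Igkv1-117 fell on WPI. Its lowest, median and highest values were 31.7, 68.2 and 97.5 CPM in WPI FAT-20, against 23.2, 73.3 and 360 CPM in CAS FAT-20. At FAT-40 they were 12.4, 26.5 and 64.3 CPM in WPI libraries, against 14.3, 69.3 and 379 CPM in CAS libraries, and at FAT-55 10.9, 26.2 and 83.5 CPM in WPI libraries, against 8.29, 34.7 and 531 CPM in CAS libraries. The ranges overlapped at each fat level, and the highest values were all on CAS. Over fat levels the log2 fold change was -1.47 ± 0.29 (SE), with an adjusted p of 1.2e-04 (edgeR), and 28 of 36 WPI libraries lay below the CAS median. Igkv8-27 had 3.02, 29.3 and 182 CPM in WPI FAT-20, against 7.24, 180 and 410 CPM in CAS FAT-20. At FAT-55 it had 3.31, 8.76 and 61.9 CPM in WPI libraries, against 2.17, 92.3 and 485 CPM in CAS libraries. Its log2 fold change over fat levels was -2.02 ± 0.42 (SE, adjusted p = 3.0e-04, edgeR), with 32 of 36 WPI libraries below the CAS median.

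Among the others that fell, Igkv1-135 changed by a log2 fold change of -1.58 ± 0.35 (SE, adjusted p = 6.4e-04, edgeR), Igkv2-109 by -1.26 ± 0.36 (adjusted p = 0.0094) and Igkv10-96 by -0.75 ± 0.18 (adjusted p = 0.0024). Each call held whichever library was left out. With a random stem effect Igkv1-135 had -0.78 (adjusted p = 0.20, limma) and Igkv2-109 -0.94 (adjusted p = 0.17, limma), and with Igkc as a covariate Igkv10-96 had -0.42 (adjusted p = 0.16, edgeR). Igkv4-72 also fell, by -1.48 ± 0.45 (adjusted p = 0.016, edgeR), but without CAS FAT-55 replicate 10 its value was -1.19 with an adjusted p of 0.056. The pseudogene Igkv2-116, named here after its values were seen, had a log2 fold change of -3.24 ± 0.73 (adjusted p = 8.3e-04, edgeR) with 1.28 ± 3.34 CPM in WPI libraries and 13.2 ± 32.1 CPM in CAS libraries (SD, n = 36 and 34). Its median was 0 CPM in WPI FAT-55 and 0.266 CPM in CAS FAT-55. With libraries left out in turn its log2 fold change ranged from -3.88, without WPI FAT-55 replicate 9, to -2.92.

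The segments that rose on WPI were mostly scarce. Igkv9-129 averaged 0.534 ± 1.29 CPM in WPI libraries and 0.145 ± 0.218 CPM in CAS libraries, with a log2 fold change of 1.67 ± 0.49 (adjusted p = 0.012, edgeR). Without any 1 of 8 libraries it fell under the minimum of reads and was not tested. All of these but CAS FAT-40 replicate 4 were WPI libraries. Igkv9-129 thus passed the filter mostly through the group in which it was higher, which limits what its p can show. Igkv1-132 averaged 0.680 ± 1.69 CPM in WPI libraries and 0.145 ± 0.363 CPM in CAS libraries, a log2 fold change of 2.11 ± 0.63 (adjusted p = 0.013, edgeR). It too was not tested without any 1 of 9 libraries, and 3 of 7 alternative settings called it. As scarce as it was on CAS, it may also have passed the filter through WPI libraries. Igkv6-14 rose by 1.5 ± 0.45 (adjusted p = 0.014, edgeR), but without WPI FAT-40 replicate 1 its value was 0.65 with an adjusted p of 0.24. Igkv5-43 was the abundant one, with 53.6 ± 72 CPM in WPI libraries and 29.6 ± 28.3 CPM in CAS libraries (SD, n = 36 and 34), a log2 fold change of 0.99 ± 0.32 (adjusted p = 0.024, edgeR). Without WPI FAT-20 replicate 5, which had 410 CPM, its value was 0.68 with an adjusted p of 0.10.

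**Figure D4:**
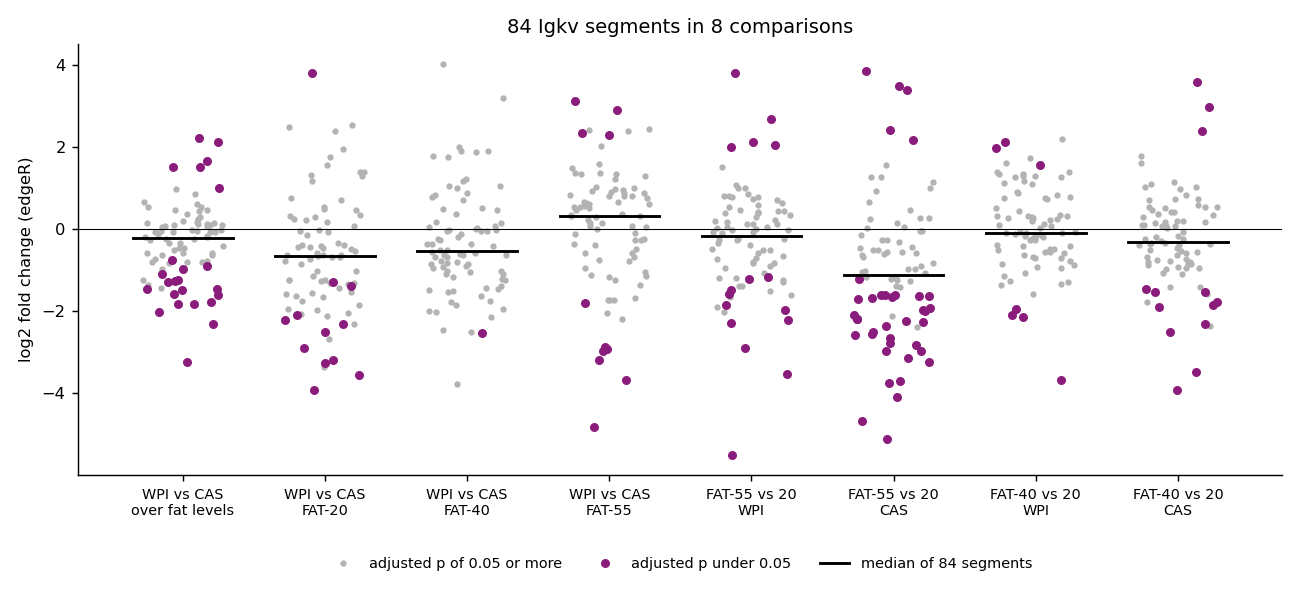
Log2 fold changes of the 84 tested segments (points) in 8 comparisons, with a bar at the median and purple points for adjusted p under 0.05 (edgeR). The median is -1.11 for CAS FAT-55 against CAS FAT-20 and -0.16 for WPI FAT-55 against WPI FAT-20.

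At FAT-20, 12 of 84 segments changed on WPI, 1 higher and 11 lower. Over all genes 6.23% changed, 2.66% higher and 3.57% lower (edgeR, adjusted p under 0.05), and the median log2 fold change of the segments was -0.67. Igkv1-133 had a lowest, median and highest value of 0, 0.397 and 3.31 CPM in WPI FAT-20, against 0.173, 5.41 and 48.5 CPM in CAS FAT-20. All 12 WPI libraries lay below the CAS median, though the ranges overlapped. This gave a log2 fold change of -3.92 ± 0.73 (SE, adjusted p = 2.6e-04, edgeR), and it was called under all 7 alternative settings, and without CAS FAT-20 replicate 1 it was -3.23 (adjusted p = 0.0019). Igkv4-55 had 1.66, 4.05 and 10.8 CPM in WPI FAT-20, against 1.88, 6.10 and 355 CPM in CAS FAT-20. Of the CAS libraries 4 of 11 stood above the WPI range, and the log2 fold change of -3.19 ± 0.60 (adjusted p = 3.1e-04, edgeR) became -1.58 with an adjusted p of 0.043 without CAS FAT-20 replicate 11. The 1 segment that rose was Igkv5-37, with 0, 0.177 and 36.9 CPM in WPI FAT-20, against 0, 0.0866 and 3.89 CPM in CAS FAT-20. The fitted log2 fold change was 3.80 ± 1.07 (adjusted p = 0.020, edgeR), but 3.01 with an adjusted p of 0.078 without WPI FAT-20 replicate 12 and 5.6 with 0.0044 without CAS FAT-20 replicate 11. Beside these, 6 of 12 plasma cell genes and 7 of 7 T cell genes fell at FAT-20, and their part in the result was not tested.

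At FAT-40, 1 of 84 segments changed, and it was lower on WPI. Over all genes 0.571% changed, 0.277% higher and 0.294% lower (edgeR, adjusted p under 0.05). The segment was Igkv2-109, with a lowest, median and highest value of 8.47, 17.1 and 63.0 CPM in WPI FAT-40, against 6.97, 50 and 686 CPM in CAS FAT-40. The ranges overlapped, and 11 of 12 WPI libraries lay below the CAS median. Its log2 fold change was -2.54 ± 0.64 (SE, adjusted p = 0.039, edgeR). The call was lost when any 1 of 12 libraries was left out, and without CAS FAT-40 replicate 1, where this segment took 47.8% of the Igkv reads, the value was -1.86 with an adjusted p of 0.16.

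At FAT-55, 11 of 84 segments changed on WPI, 4 higher and 7 lower. Over all genes 3.70% changed, 0.889% higher and 2.81% lower (edgeR, adjusted p under 0.05). The median log2 fold change of the segments was 0.32, above 0, while the summed Igkv level was lower on WPI. Igkv5-43 had a lowest, median and highest value of 5.80, 72 and 122 CPM in WPI FAT-55, against 1.0, 7.28 and 50.7 CPM in CAS FAT-55. Of the WPI libraries, 11 of 12 lay above the CAS median, and the ranges overlapped at the low end. The fitted log2 fold change was 2.33 ± 0.58 (SE, adjusted p = 0.011, edgeR), and leaving out any library kept it between 2.21 and 2.77 with an adjusted p of at most 0.025. With counts summed by identifier stem the value was 2.25 (adjusted p = 0.091, edgeR), and with a random stem effect 2.46 (adjusted p = 0.095, limma), neither past the threshold. Of all 11 calls at FAT-55, 1 held with the summed counts and 0 with the random effect. Its near copy Igkv5-45, identical over the bases shown above, had a median of 0.260 CPM over all libraries and a highest value of 9.14 CPM.

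Igkv4-70 had 1.26, 1.80 and 21.8 CPM in WPI FAT-55, against 0.0437, 0.525 and 1.27 CPM in CAS FAT-55. The 2 ranges touched only at their edges, and all 12 WPI libraries lay above the CAS median. This gave a log2 fold change of 3.13 ± 0.75 (adjusted p = 0.0077, edgeR), and 2.51 with an adjusted p of 0.037 without WPI FAT-55 replicate 9. With counts summed by stem it was 3.10 (adjusted p = 0.14, edgeR). Igkv12-38 and Igkv8-19 rose as well, but each call was lost when 1 of several libraries was left out. For Igkv8-19 the log2 fold change was 2.89 ± 0.80 (adjusted p = 0.024, edgeR), with an adjusted p of 0.092 without WPI FAT-55 replicate 2.

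Of the segments that fell at FAT-55, Igkv8-27 was below the CAS median in 12 of 12 WPI libraries, with a log2 fold change of -2.93 ± 0.75 (SE, adjusted p = 0.013, edgeR). Without CAS FAT-55 replicate 2, where it took 31.7% of the Igkv reads, the value was -2.32 with an adjusted p of 0.053. Igkv1-117 had a log2 fold change of -1.79 ± 0.50 (adjusted p = 0.026, edgeR), which was -1.14 with an adjusted p of 0.20 without CAS FAT-55 replicate 8 and -1.43 with 0.091 without replicate 2. Igkv4-72 had 5.54, 23.8 and 54.1 CPM in WPI FAT-55, against 1.17, 14.2 and 1137 CPM in CAS FAT-55, so its median was higher on WPI. Its log2 fold change of means was -2.88 ± 0.82 (adjusted p = 0.031, edgeR), and it was -2.16 with an adjusted p of 0.11 without CAS FAT-55 replicate 6 and -2.02 with 0.17 without replicate 10. Igkv4-69 had a log2 fold change of -3.19 ± 0.87 (adjusted p = 0.021, edgeR), which was 0.93 with an adjusted p of 0.68 without CAS FAT-55 replicate 9. None of the 7 calls of lower segments held whichever library was left out. The summed mature B cell genes had a lowest, median and highest value of 20.3, 24.2 and 27.4 CPM in WPI FAT-55, against 15.8, 37.0 and 589 CPM in CAS FAT-55, and their part in these results was not tested. All 13 mature B cell genes fell, with a median log2 fold change of -4.00, as did 5 of 7 T cell genes and 6 of 18 constant, joining and lambda genes, while of 12 plasma cell genes 0 did. Without any 1 library at least 9 of the 13 and 4 of the 7 were called, and with counts summed by stem 0 of the 13 and 3 of the 7.

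**Figure D5:**
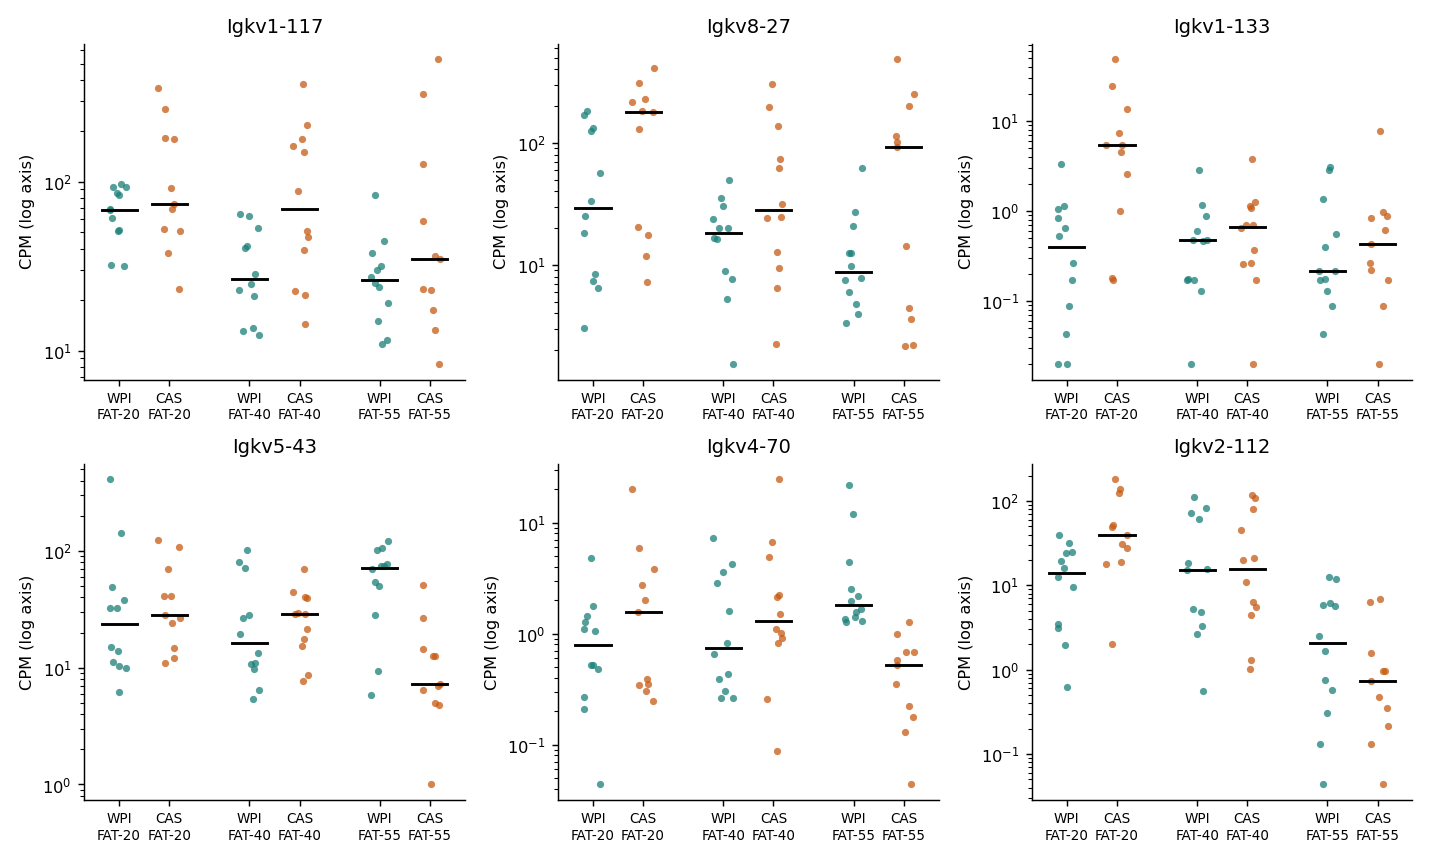
CPM per jejunum library (points, log axis, 0 drawn at 0.02) of 6 segments in 6 diets, with a line at each diet's median. Igkv5-43 has a median of 72 CPM in WPI FAT-55 and 7.28 CPM in CAS FAT-55, and Igkv2-112 has 0.744 CPM in CAS FAT-55 and 39.6 CPM in CAS FAT-20.

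The next comparisons ask how segments change with the fat label within each protein. On CAS, 38 of 84 segments changed at FAT-55 against FAT-20, 5 higher and 33 lower. Over all genes 27.7% changed, 14.4% higher and 13.3% lower (edgeR, adjusted p under 0.05). The median log2 fold change was -1.11 for the segments and -0.01 for all genes. Igkv2-112 had a lowest, median and highest value of 0.0438, 0.744 and 6.87 CPM in CAS FAT-55, against 1.99, 39.6 and 180 CPM in CAS FAT-20. All 11 FAT-55 libraries lay below the FAT-20 median, and the ranges overlapped only at their ends. Its log2 fold change was -5.12 ± 0.87 (SE, adjusted p = 1.4e-05, edgeR), with a range of -5.67 to -4.83 when libraries were left out in turn. This segment shares no 50-base window with another functional segment, and its medians on WPI were 2.09 CPM at FAT-55 and 14.1 CPM at FAT-20.

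Igkv1-110, the most abundant segment, had 3.83, 23.1 and 145 CPM in CAS FAT-55, against 17.5, 165 and 477 CPM in CAS FAT-20. All 11 FAT-55 libraries lay below the FAT-20 median, and the log2 fold change was -2.23 ± 0.50 (SE, adjusted p = 6.3e-04, edgeR). Igkv6-17 had 0.522, 2.66 and 6.01 CPM in CAS FAT-55, against 3.33, 11.9 and 41.7 CPM in CAS FAT-20, and again all 11 lay below the median. This gave a log2 fold change of -2.36 ± 0.45 (adjusted p = 8.8e-05, edgeR). Igkv6-15, named after its values were seen, fell by 1.99 ± 0.41 on the log2 scale (adjusted p = 2.5e-04, edgeR). Igkv5-43 and Igkv4-70, the segments that were higher on WPI at FAT-55, fell on CAS by 1.70 ± 0.58 (adjusted p = 0.022, edgeR) and 2.66 ± 0.76 (adjusted p = 0.0064, edgeR). Without CAS FAT-20 replicate 9 both calls were lost, with values of -1.42 and -1.67. Igkv4-55 fell by 3.71 ± 0.64 (adjusted p = 1.7e-05, edgeR), and by 2.10 with an adjusted p of 0.0020 without CAS FAT-20 replicate 11. None of the 5 segments that rose was called whichever library was left out. Igkv4-69 had a log2 fold change of 3.86 ± 0.94 (adjusted p = 0.0016, edgeR) but -0.26 without CAS FAT-55 replicate 9. Igkv4-86 had 3.49 ± 0.91 (adjusted p = 0.0029, edgeR) but -0.24 without CAS FAT-55 replicate 4, and Igkv4-90 had 3.39 ± 1.06 (adjusted p = 0.012, edgeR) but 1.98 with an adjusted p of 0.12 without CAS FAT-55 replicate 7. All 12 plasma cell genes fell too, with 8 of 10 smooth muscle genes and 5 of 7 adipose genes. Igkc averaged 2420 ± 1089 CPM in CAS FAT-55 and 4833 ± 1535 CPM in CAS FAT-20 (SD, n = 11 each), a log2 fold change of -0.91 ± 0.20 (SE, adjusted p = 5.6e-04, edgeR).

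On WPI, 16 of 84 segments changed at FAT-55 against FAT-20, 5 higher and 11 lower. Over all genes 30.8% changed, 14.2% higher and 16.6% lower (edgeR, adjusted p under 0.05), so the share of segments, 19.0%, was under that of all genes. Igkv12-38 had a lowest, median and highest value of 0.0430, 1.11 and 17.3 CPM in WPI FAT-55, against 0, 0.231 and 0.442 CPM in WPI FAT-20. Of the FAT-55 libraries 9 of 12 lay above the FAT-20 median, and the rest overlapped it. The fitted log2 fold change was 3.80 ± 0.71 (SE, adjusted p = 3.2e-05, edgeR), and 3.06 without WPI FAT-55 replicate 12, and it was called under all 7 alternative settings. Igkv3-7 had 0.393, 1.91 and 26.5 CPM in WPI FAT-55, against 0.0433, 0.623 and 2.46 CPM in WPI FAT-20, a log2 fold change of 2.67 ± 0.77 (adjusted p = 0.0056, edgeR). Without WPI FAT-55 replicate 8 it was 1.96 with an adjusted p of 0.042. Igkv4-70 had 1.26, 1.80 and 21.8 CPM in WPI FAT-55, against 0.0442, 0.791 and 4.85 CPM in WPI FAT-20. All 12 libraries at FAT-55 exceeded the median at FAT-20, but the log2 fold change of 2.11 ± 0.67 (adjusted p = 0.012, edgeR) was 1.47 with an adjusted p of 0.081 without WPI FAT-55 replicate 9.

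Of the segments that fell on WPI, Igkv12-41 had 1.68, 4.78 and 9.53 CPM in WPI FAT-55, against 3.98, 14.7 and 34.6 CPM in WPI FAT-20. All 12 FAT-55 libraries lay below the FAT-20 median, and the log2 fold change was -1.48 ± 0.47 (SE, adjusted p = 0.012, edgeR). Igkv8-30 had 2.35, 7.51 and 34.6 CPM in WPI FAT-55, against 1.29, 26.4 and 137 CPM in WPI FAT-20, a log2 fold change of -2.21 ± 0.70 (adjusted p = 0.012, edgeR). Igkv5-37 had a median of 0.0218 CPM in WPI FAT-55, where 6 of 12 libraries had no read, and 0.177 CPM in WPI FAT-20, with a log2 fold change of -5.51 ± 1.22 (adjusted p = 3.7e-04, edgeR), which was -4.70 without WPI FAT-20 replicate 12 and -6.53 without WPI FAT-55 replicate 10. Igkv5-43, so common in WPI FAT-55, averaged 64.5 ± 36.8 CPM there and 64.4 ± 115 CPM in WPI FAT-20 (SD, n = 12 each), with an adjusted p of 0.84 (edgeR). In the FAT-20 group 1 library, at 410 CPM, made up much of that mean, and the medians were 72 CPM in WPI FAT-55 and 23.7 CPM in WPI FAT-20. Beside these, 8 of 12 plasma cell genes, 10 of 10 smooth muscle genes and 6 of 7 adipose genes fell.

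At FAT-40 against FAT-20 fewer segments changed. On CAS there were 13 of 84, 3 higher and 10 lower, where 25.1% of all genes changed, 12.7% higher and 12.4% lower (edgeR, adjusted p under 0.05). Igkv6-15 had 4.35, 9.83 and 25.2 CPM in CAS FAT-40, against 7.31, 42.6 and 114 CPM in CAS FAT-20. All 12 FAT-40 libraries lay below the FAT-20 median, and the log2 fold change of -1.77 ± 0.40 (SE, adjusted p = 8.4e-04, edgeR) was called under all 7 alternative settings. Igkv1-133 had 0, 0.672 and 3.80 CPM in CAS FAT-40, against 0.173, 5.41 and 48.5 CPM in CAS FAT-20, a log2 fold change of -3.49 ± 0.71 (adjusted p = 2.6e-04, edgeR), and -2.82 without CAS FAT-20 replicate 1. Both this comparison and that of the proteins at FAT-20 use the CAS FAT-20 libraries, so the 2 falls of Igkv1-133 share them. Igkv3-7 and Igkv1-122 rose, but without CAS FAT-40 replicate 3 the value of Igkv3-7 was 0.80 with an adjusted p of 0.38, and without CAS FAT-40 replicate 12 that of Igkv1-122 was -0.57 with 0.67. On WPI there were 7 of 84, 3 higher and 4 lower, where 25.8% of all genes changed, 12.7% higher and 13.0% lower. Igkv3-4 fell by 2.13 ± 0.66 on the log2 scale, with 3.61 ± 4.70 CPM in WPI FAT-40 and 16.7 ± 16.1 CPM in WPI FAT-20 (SD, n = 12 each, adjusted p = 0.013, edgeR). Igkv9-124 fell by 1.95 ± 0.62 (adjusted p = 0.015, edgeR), and without WPI FAT-20 replicate 6 its value was -1.42 with an adjusted p of 0.077. Beside these, 10 of 10 smooth muscle genes, 6 of 7 adipose genes and 6 of 12 plasma cell genes fell on CAS at FAT-40. On WPI 10 of 10 smooth muscle and 6 of 7 adipose genes fell and 5 of 7 T cell genes rose, while 0 of 12 plasma cell genes changed. With adipose and smooth muscle scores as covariates 2 segments were called on CAS in place of 13 and 1 on WPI in place of 7. Over all genes that fit called 157 on CAS in place of 4262 and 20 on WPI in place of 4377, so the loss was not particular to the segments.

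An interaction term asked if FAT-55 against FAT-20 gave another fold change on WPI than on CAS. With edgeR 0 of 84 segments and 0% of all genes passed, while 31 segments and 1016 genes had an unadjusted p under 0.05. DESeq2 called 4 segments among 6 genes, 0.0353% of all genes. The 4 were Igkv4-70, Igkv4-55, Igkv12-38 and Igkv4-53. In edgeR the difference, WPI minus CAS, was 4.77 ± 1.02 on the log2 scale for Igkv4-70 (SE, adjusted p = 0.11), 4.15 ± 0.84 for Igkv4-55 (adjusted p = 0.096) and 4.37 ± 0.98 for Igkv12-38 (adjusted p = 0.13). The larger number of segments called on CAS is therefore not shown to differ from that on WPI.

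A last fit asked which segments differed beyond the level of kappa chain RNA, with the log2 CPM of Igkc of each library as a covariate. Igkc itself differed between diets, so this fit also takes away part of any diet effect that runs through it. Between proteins over fat levels, 11 segments were then called, where 8.55% of all genes were. At FAT-55, 8 were called between proteins, where 3.18% of all genes were. At FAT-55 against FAT-20, 7 were called on CAS and 7 on WPI, where 6.87% and 20.9% of all genes were. Igkv5-43 between the proteins at FAT-55 had a log2 fold change of 2.68 in this fit (adjusted p = 0.0035, edgeR) and Igkv4-70 had 3.26 (adjusted p = 0.0060, edgeR). Igkv2-112 on CAS had -4.92 at FAT-55 against FAT-20 (adjusted p = 0.0012, edgeR), while Igkv1-110 had -1.21 (adjusted p = 0.24, edgeR).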

How the data were processed

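Total RNA of jejunum was sequenced, and the deposited table holds raw read counts per Ensembl gene for 70 libraries, made by the authors. Per the submitters' processing notes, the tools named, with no role given, are STAR, Trim Galore 0.61, FastQC, cutadapt and DESeq2 1.24.0, and the build is GRCm38. The strand setting, annotation release and STAR version are not given in the sources used here. Of all entries 23.0% named no gene (8.0% multimapping) and were left out. Symbols were matched through GENCODE M21. Replicate numbers follow accession order and only name libraries.

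Counts were tested with edgeR 4.0.16 (R 4.3.3), using TMM scaling, filterByExpr (minimum count 10, total 15), a quasi-likelihood fit of 6 diets over 70 libraries and Benjamini-Hochberg adjustment over 16992 genes and within each of 9 comparisons. Fold changes are fitted by edgeR, and CPM values are scaled by the reads on genes. Alternatives used DESeq2 1.42.0, RLE scaling, no filter, marker or Igkc covariates, summed stems, a random stem effect (limma 3.58.1) and each library left out. The procedure was tested on simulated data, drawn independently for each library. These data held no stem effect, so they cannot show how calls fare where stem mates are alike. A listed marker gene, and an alternative that rested on it, are not reported here. The members, gene lists and tests were chosen with earlier results of these data known. Named segments are the 10 with the highest mean CPM, up to 3 called ones with the smallest adjusted p per direction and comparison, and those holding 20% or more of a library; some were omitted for length, and others named were chosen after their values were seen.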

Additional observations from a re-analysis of the deposited data

Results flagged for a closer look

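Igkv4-70 had fold changes of opposite sign with the fat label on the 2 proteins, and neither call held throughout. On WPI it had a lowest, median and highest value of 1.26, 1.80 and 21.8 CPM in FAT-55, against 0.0442, 0.791 and 4.85 CPM in FAT-20. On CAS it had 0.0437, 0.525 and 1.27 CPM in FAT-55, against 0.248, 1.56 and 20.2 CPM in FAT-20. All 12 WPI FAT-55 libraries lay above the median of WPI FAT-20, and all 11 CAS FAT-55 libraries lay below the median of CAS FAT-20. That pattern of opposite sides was not itself tested. On WPI the log2 fold change of 2.11 was 1.47 without WPI FAT-55 replicate 9 (adjusted p = 0.081, edgeR), and -0.24 with adipose and smooth muscle scores as covariates. On CAS that of -2.66 was -1.67 without CAS FAT-20 replicate 9 (adjusted p = 0.079, edgeR). The interaction in edgeR gave a difference of 4.77 ± 1.02 on the log2 scale (SE, adjusted p = 0.11), which did not pass. Igkv4-70 shares 63.9% of its 50-base windows with other segments, and what part assignment of reads plays was not tested.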

How the results depend on the processing

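Between diets, no paired analysis was possible because replicate numbers were given in accession order and only name libraries. Each animal identifier and each stem also lies within 1 diet. With Igkc as a covariate the segments called between proteins were 11 over fat levels in place of 24 and 2 at FAT-20 in place of 12. At FAT-55 against FAT-20 they were 7 on CAS in place of 38 and 7 on WPI in place of 16. At FAT-40 against FAT-20 on CAS they were 5 in place of 13. Over all genes that fit called 494 between proteins at FAT-20 in place of 1058. For FAT-40 against FAT-20 on CAS it called 2876 genes in place of 4262. With counts summed by stem 89 segments were tested. Those called were 9, 3, 0 and 1 between proteins (first over fat levels, then by rising fat label). They were 24 and 4 at FAT-55 against FAT-20 on CAS and WPI, and 6 and 0 at FAT-40 against FAT-20. Over all genes the calls were 1250, 227, 12 and 65, then 3383 and 3411, then 2121 and 2091. With a random stem effect the segments called were 1, 2, 0 and 0, then 14 and 4, then 3 and 0, in the same order. Over all genes they were 1571, 489, 33 and 108, then 3897 and 4148, then 3183 and 3159. With adipose and smooth muscle scores the fat comparisons gave 16 and 6 segments at FAT-55 and 2 and 1 at FAT-40, on CAS and WPI. Over all genes they gave 979 and 204 at FAT-55, in place of 4711 and 5231, and 157 and 20 at FAT-40, in place of 4262 and 4377. At FAT-55 that fit called 19.0% of the segments on CAS and 7.14% on WPI. At FAT-40 between proteins 3 of 135 segments were called with no filter, and the 1 call of the main fit was lost. DESeq2 called 2 of 84 there, with the call of the main fit among them. DESeq2 called 4 in the interaction. Leaving out 1 library at a time gave 0 to 2 calls between proteins at FAT-40, 7 to 12 at FAT-55 (11 with all), 4 to 8 on WPI at FAT-40 against FAT-20 (7 with all) and 0 to 1 in the interaction. The 7 came without CAS FAT-55 replicate 7 or WPI FAT-55 replicate 12, and the 4 without WPI FAT-20 replicate 6 or 8. Of the called segments, 10 of 24, 4 of 12, 0 of 1 and 2 of 11 between proteins were called whichever library was left out, and 19 of 38 on CAS and 5 of 16 on WPI at FAT-55 against FAT-20.

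Values for single segments under the alternatives numbered 719, and they included segments not called in the main fit. Keeping the side of the threshold could therefore also mean staying uncalled. Of the 719, 572 kept direction and side of the threshold, 140 lost the call, 3 gained it and 4 changed sign. Those 4 were Igkv4-69 on CAS at FAT-55 against FAT-20 (-0.37, DESeq2), Igkv4-86 there (-0.29 with a random stem effect, -0.28 with DESeq2) and Igkv4-70 on WPI at FAT-55 against FAT-20 (-0.24 with adipose and smooth muscle scores). The causes were not tested.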

Other observations

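Liver libraries labelled with the same 70 animal identifiers held few Igkv reads, with a total of 1.54 to 17.8 CPM, a median of 3.9 CPM and a median of 105 reads. By the Bray-Curtis distance a jejunum library differed from its own liver by 0.575 on average and from other livers of its diet by 0.603. The largest segment was the same in both organs in 5 of 70 mice, and the own liver was the nearest for 2 jejunum libraries. For 1 of these mice, CAS FAT-20 replicate 11, the library numbers in the labels differ between the organs. Without that pair, left out after the data were seen, the distances averaged 0.576 and 0.604, the largest segment was the same in 5 of 69 mice, and the own liver was the nearest for 2. In CAS FAT-55 replicate 6, where Igkv4-72 took 68.1% of the jejunum reads, the liver had 0 of 66 Igkv reads from it. In CAS FAT-55 replicate 8, where Igkv1-117 took 44.7% in jejunum, it took 10.9% of 175 liver reads, against a median of 5.26% in other livers. At these read numbers single shares in liver are imprecise.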
